A study of Homo sapiens with 34 samples.

Results

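ZEB2 and 9 other genes of the epithelial-mesenchymal transition were followed through cardiac differentiation of H1 cells, an established human embryonic stem cell (ESC) line. The 10 genes were taken by name, by a rule that uses no measured value, although earlier results of these data were known when they were listed: the transcription factors ZEB1, ZEB2, SNAI1, SNAI2, TWIST1 and TWIST2, the epithelial surface proteins CDH1 and EPCAM, and the mesenchymal proteins CDH2 and VIM. All 10 were found among the 23185 gene symbols that could be given to the rows of the read count table, each through the RefSeq row with the largest total, and ZEB2 was also read in each of its 3 rows. Lentiviral shRNA vectors targeted NKX2-5, ZEB2 or ZNF503, and cells called WT had received an empty vector or one whose shRNA targets GFP. Every line was selected with puromycin and driven towards cardiomyocytes with CHIR99021 followed by IWP2, and RNA was taken at days 0, 2, 6 and 10. Each shRNA line stands for a single vector, the best of those tested for its gene, so that an effect of the vector and an effect of its target cannot be told apart. All 15 groups used here held 2 libraries, WT and ZEB2 shRNA cells at day 10 being represented by replicates 3 and 4 only because the values of replicates 1 and 2 did not follow the accessions of their rows, and day 10 of the ZNF503 shRNA line was not analysed here.

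An epithelial-mesenchymal transition turns cells that are joined to their neighbours into single, motile cells, and embryos use it when mesoderm leaves the primitive streak. The zinc finger proteins of the ZEB and SNAI families and the helix-loop-helix TWIST proteins drive it, in large part by repressing CDH1, which encodes the adhesion protein E-cadherin. ZEB and SNAI proteins bind the E-box CACCTG. Cells that undergo the change commonly exchange E-cadherin for N-cadherin, the product of CDH2, and gain the intermediate filament protein vimentin, the product of VIM. EPCAM is an adhesion protein of epithelia and of undifferentiated ESCs.

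The promoters of both ZEB genes are shown because they are the regulators whose levels are compared most closely below. RefSeq promoter sequence (GRCh38.p14, 250 bases before to 50 after the start) was matched for ZEB1, ZEB2, TWIST2, CDH2 and VIM, with 12 starts in all, and not for SNAI1, SNAI2, TWIST1, CDH1 and EPCAM. CACCTG, or CAGGTG as the same letters read on the other strand, occurred at 2 of these 12 starts, both belonging to ZEB1, and at 20.6% of the 35116 promoters of this length. The window of ZEB2 (chr2:144520070-144520369, minus strand) held no match, and those of the ZEB1 start with most matches (chr10:31318966-31319265, plus strand) held 3, printed in capitals. A match describes the letters and not a site in use.
ZEB2: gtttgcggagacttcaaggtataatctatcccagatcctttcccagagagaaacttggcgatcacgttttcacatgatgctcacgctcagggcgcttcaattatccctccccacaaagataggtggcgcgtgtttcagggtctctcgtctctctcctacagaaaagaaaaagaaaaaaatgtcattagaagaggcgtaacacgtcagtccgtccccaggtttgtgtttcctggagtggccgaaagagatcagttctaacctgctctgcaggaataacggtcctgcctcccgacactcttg
ZEB1: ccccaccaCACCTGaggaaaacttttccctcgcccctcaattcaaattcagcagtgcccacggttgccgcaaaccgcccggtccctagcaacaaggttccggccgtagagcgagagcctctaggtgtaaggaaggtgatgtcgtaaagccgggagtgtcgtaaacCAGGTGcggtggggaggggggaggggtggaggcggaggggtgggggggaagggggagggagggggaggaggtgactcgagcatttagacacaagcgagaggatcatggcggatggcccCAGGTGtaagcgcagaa

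Libraries held 9189588 to 90798116 counts over 1 row per gene. Levels are given as read counts scaled to the library total (CPM) scaled by TMM, which sets libraries to a common composition, and 3 counts corresponded to 0.0336 to 0.323 CPM. A gene was said to rise or fall where the quasi-likelihood test of edgeR gave an adjusted p below 0.05 over all genes tested, a false discovery rate (FDR) of 5%. The study calls its RNA-seq replicates biological, the labels do not say whether they were separate differentiations, and p-values measure the spread between these libraries. The 7 cardiomyocyte markers of WT cultures summed to 8750 to 11000 CPM by day 6 and reached 13500 to 16500 CPM by day 10. Cultures were sequenced in bulk, so fewer cells of a type and less RNA per cell cannot be told apart in any value below.

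In WT cells 5 of the 6 regulators and CDH2 had risen by day 2, while CDH1 fell and VIM rose only after it. ZEB2, which was at 0 and 0.236 CPM in the day 0 libraries, stood at 18.1 and 17.6 CPM at day 2, 96.8 and 94.1 CPM at day 6 and 117 and 105 CPM at day 10. No library of a later day came near those of day 0. The log2 fold change from day 0 was 7.22 (SE 0.38, adjusted p = 5.28e-07) at day 2, 9.62 at day 6 and 9.87 at day 10, values that rest on 0 and 9 reads at day 0 and became 6.25, 8.65 and 8.89 without WT day 0 replicate 1, or 11.85, 14.25 and 14.48 without replicate 2. From day 2 to day 6 ZEB2 rose by a further 2.40 (SE 0.21, adjusted p = 7.36e-06), and between days 6 and 10 it moved by 0.25 (SE 0.20, adjusted p = 0.295).

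ZEB1, the closest relative of ZEB2, came later. Its WT levels were 0.320 and 0.392 CPM at day 0, 1.54 and 2.02 CPM at day 2, 74.8 and 72.3 CPM at day 6 and 94.0 and 77.1 CPM at day 10. The step from day 2 to day 6 was the larger one, with log2 fold changes of 2.31 (SE 0.27, adjusted p = 0.00011) up to day 2 and 5.39 (SE 0.18, adjusted p = 7.8e-09) from there. The log2 ratio of ZEB2 to ZEB1 reads, with 0.5 added to each count, therefore went from 3.54 and 3.10 at day 2 to 0.37 and 0.38 at day 6 and 0.31 and 0.45 at day 10. In reads, ZEB2 led at day 2 and both genes were close to level from day 6, although rows of different length are compared by this ratio only as it changes.

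The 4 remaining regulators each had their own course in WT cells. SNAI1, a direct repressor of CDH1, was raised only in passing, from 3.84 and 3.66 CPM at day 0 to 13.9 and 12.9 CPM at day 2, then 3.55 and 4.67 CPM at day 6 and 2.84 and 2.58 CPM at day 10. It rose by 1.88 (SE 0.22, adjusted p = 9.39e-05) on the log2 scale and then fell by 1.71 (SE 0.22, adjusted p = 0.000107) from day 2 to day 6. SNAI2, its relative, was at 0.267 and 0.209 CPM at day 0, 4.76 and 4.599 CPM at day 2, 16.1 and 24.97 CPM at day 6 and 13.4 and 12.04 CPM at day 10. SNAI2 rose at both early steps, by 4.32 and 2.12, and fell by 0.66 (SE 0.23, adjusted p = 0.0291) from day 6 to day 10, which ended without WT day 6 replicate 2 (-0.33, adjusted p = 0.261) or day 10 replicate 4 (-0.61, adjusted p = 0.0718).

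TWIST1 and TWIST2, which encode closely related proteins, went opposite ways. TWIST1 had 2 and 0 reads in the WT libraries of day 0 and was at 0.257 and 0.797 CPM at day 2, 13.1 and 13.4 CPM at day 6 and 9.95 and 9.36 CPM at day 10. Because of those 2 reads its rise is given as a ratio of summed counts, 16.8-fold at day 2 (95% interval 4.10 to 147, exact binomial, counting error only), 503-fold at day 6 (139 to 4160) and 369-fold at day 10 (101 to 3060). TWIST2 was at 1.71 and 1.13 CPM at day 0 and 1.42 and 1.84 CPM at day 2, and then at 0.130 and 0.0962 CPM at day 6 and 0.103 and 0.215 CPM at day 10. It fell by 3.62 (SE 0.56, adjusted p = 0.000309) on the log2 scale from day 0 to day 6, when 3 and 4 reads were left.

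CDH1 fell in WT cells only after day 2. WT libraries had 253 and 231 CPM at day 0, 228 and 228 CPM at day 2, 26.6 and 39.2 CPM at day 6 and 27.8 and 10.97 CPM at day 10. The day 2 libraries gave a log2 fold change of -0.04 (SE 0.28, adjusted p = 0.929) against day 0, and CDH1 fell by 2.80 (SE 0.30, adjusted p = 3.19e-05) from day 2 to day 6. EPCAM followed more slowly, from 210 and 196 CPM at day 0 to 176 and 178 CPM at day 2, 101 and 158 CPM at day 6 and 42.9 and 28.5 CPM at day 10. Its fall from day 0 was 0.62 (SE 0.20, adjusted p = 0.0217) at day 6 and 2.43 (SE 0.22, adjusted p = 3.36e-06) at day 10, where the first of these was no longer called without WT day 0 replicate 1 or 2 or day 6 replicate 1 (adjusted p = 0.0908, 0.0537 and 0.171).

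CDH2 had already risen at day 2, before any fall of CDH1. It stood at 138 and 135 CPM at day 0, 474 and 477 CPM at day 2, 504 and 567 CPM at day 6 and 1125 and 963 CPM at day 10. Log2 fold changes from day 0 were 1.85 (SE 0.11, adjusted p = 8.8e-07), 2.00 and 3.00 at the 3 later days. VIM dipped before it rose: 59.3 and 50.1 CPM at day 0 gave way to 25.7 and 27.2 CPM at day 2, then 1632 and 1588 CPM at day 6 and 722 and 678 CPM at day 10. The fall to day 2 was 1.00 (SE 0.11, adjusted p = 6.99e-05) on the log2 scale, the rise from day 2 to day 6 was 5.91 (SE 0.13, adjusted p = 1e-09), and the fall after that was 1.17 (SE 0.11, adjusted p = 1.45e-05).

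**Figure D1:**
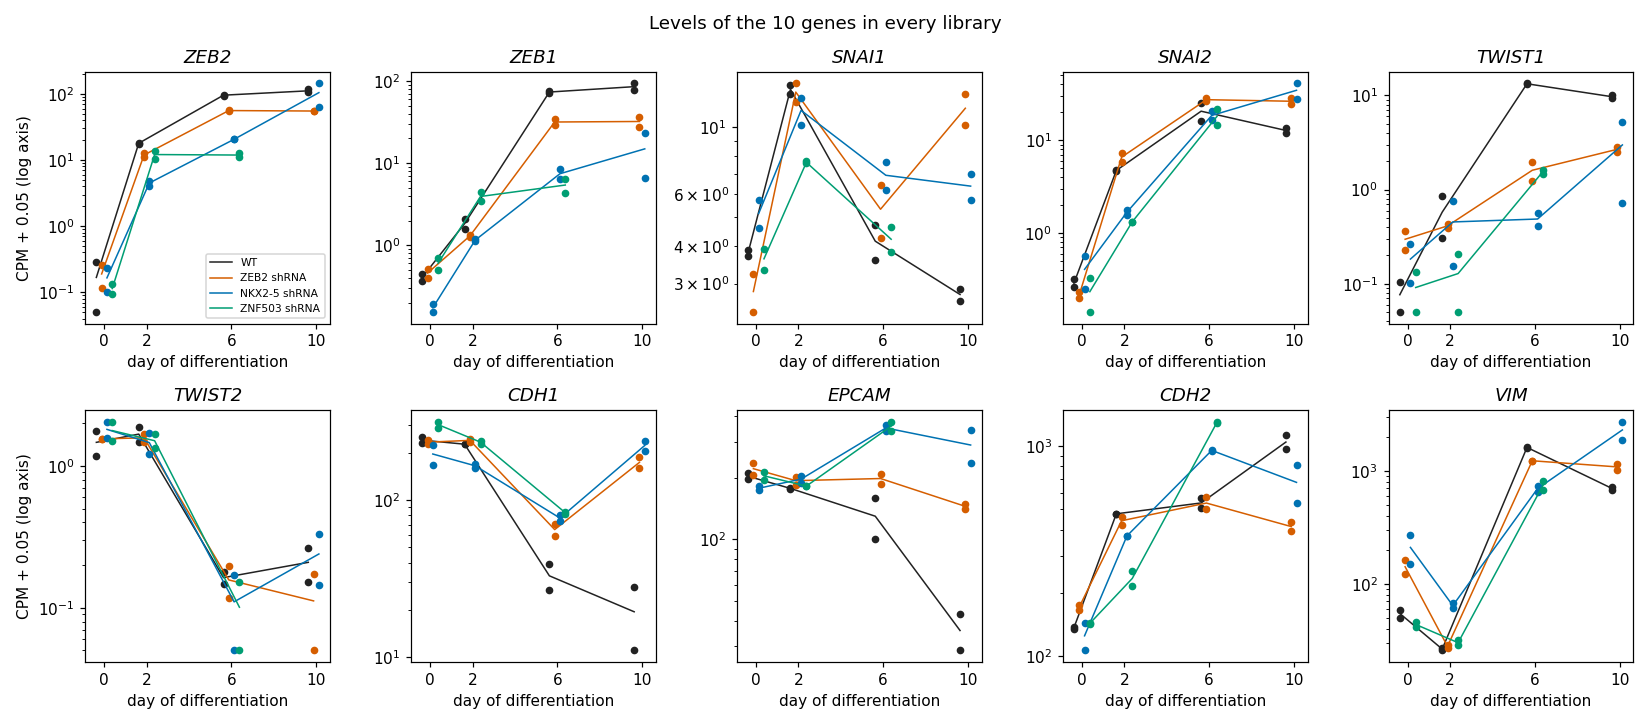
CPM plus 0.05 on a log axis against the day of differentiation for each of the 10 genes. Points are single libraries (2 per group), lines join group means and colours mark the 4 lines. In WT cells ZEB2 and CDH2 are up at day 2, ZEB1, TWIST1 and VIM are up at day 6, and CDH1 drops only after day 2.

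By count, 6 of the 10 genes rose and 1 (VIM) fell in WT cells from day 0 to day 2, and 6 rose and 3 (CDH1, EPCAM and TWIST2) fell to day 6 and to day 10. Differentiation changed much of the transcriptome, since 44.1%, 60.9% and 73.8% of all 17215 genes tested passed the same test at days 2, 6 and 10. The median log2 fold change of the 10 genes was 1.86, 3.45 and 3.37 at these days, beside -0.0083, 0.029 and 0.10 over all genes. From day 2 to day 6, 8 of 10 passed where 49.9% of all genes did, and from day 6 to day 10, 4 of 10 where 57.5% did. With the fold and FDR thresholds that the study applied, which were 4-fold with 10% FDR at day 2 and 8-fold with 1% FDR at days 6 and 10, 4, 6 and 7 of the 10 passed in WT cells against 8.37%, 10.2% and 15.5% of all genes.

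The wider lists behind the 10 genes, of which none was drawn up independently of these data, moved as follows in WT cells. Of 28 further epithelial genes, 4 rose and 11 fell at day 2, 7 and 12 at day 6, and 4 and 18 at day 10. These counts stand beside the 44.1%, 60.9% and 73.8% of all genes that passed at those days, and the number of genes called is not read as particular to the list. Among those that fell were CDS1, a lipid synthesis enzyme, CLDN6, a tight junction protein of ESCs (324 CPM at day 0 and 53.2 CPM at day 10, group means), ESRP1, a splicing regulator of epithelia (275 and 10.6 CPM), and GRHL2, a transcription factor that maintains epithelia (100.3 and 2.46 CPM). Those that rose were mainly filament and desmosome genes, with KRT19 from 34.2 CPM to 504 CPM and KRT8 from 192 CPM to 1135 CPM at day 6, and DSP from 378 CPM to 721 CPM at day 10. RAB25 and PKP3 rose by 1.15 and 1.63 on the log2 scale at day 2.

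Of 20 further mesenchymal genes, 8 rose and 2 fell at day 2, 17 and 2 at day 6, and 17 and 1 at day 10. Among all genes 44.1%, 60.9% and 73.8% passed at those days. PDGFRA, a growth factor receptor of early mesoderm, rose by 6.29 (SE 0.13) at day 2, and FN1, which encodes fibronectin, by 4.21 (SE 0.11) at day 6. TNC, which encodes a matrix protein, rose at day 2 as well. THY1, a surface protein that is also high in ESCs, fell by 2.78 at day 2 and had a log2 fold change of -5.35 at day 10, MMP2 fell by 1.25 at day 6, and CDH6 had no read in either WT library of day 2. Medians were -0.37, -0.26 and -1.41 for the epithelial list and 0.047, 3.36 and 3.03 for the mesenchymal list at days 2, 6 and 10.

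The targeted gene itself was low in every line at day 0, so the shRNA against ZEB2 can be judged only from day 2. In ZEB2 shRNA cells ZEB2 (row NM_014795) was at 0.0671 and 0.212 CPM at day 0, 11.2 and 12.5 CPM at day 2, 54.6 and 57.1 CPM at day 6 and 54.96 and 54.95 CPM at day 10. Both libraries lay below both WT libraries at each of days 2, 6 and 10. ZEB2 was at 58.5% ± 1.84 of WT at day 6 (SD, n = 2; log2 fold change -0.77, SE 0.12, adjusted p = 0.00136) and at 49.5% ± 0.00657 at day 10 (-1.02, SE 0.34, adjusted p = 0.0793, above the threshold). At day 2 the log2 fold change was -0.63 (SE 0.17, adjusted p = 0.185, also above it). The SDs of the percentages cover the ZEB2 shRNA libraries against the WT mean and leave out the spread between WT libraries. The day 6 call was lost when all 30 libraries were fitted together (adjusted p = 0.108), and the day 10 value passed with DESeq2 (adjusted p = 0.0266), the edgeR exact test (0.0321) and that joint fit (0.00707). By real-time PCR, a different measure, the study reports that only a small part of the target mRNA was left in its knockdown lines. These libraries kept 66.4%, 58.5% and 49.5% of WT ZEB2 at days 2, 6 and 10, a much weaker reduction.

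The 3 RefSeq rows of ZEB2 (chromosome 2, 145121931 to 145278624, minus strand, GRCh37) did not move alike in ZEB2 shRNA cells. NM_014795 and NM_001171653, both coding transcripts, share most of their reads, NM_001171653 holding 95.03% to 100% of the reads of NM_014795 at days 2, 6 and 10. NR_033258, a non-coding transcript of the locus, was at 5.46 and 5.98 CPM in ZEB2 shRNA cells at day 2, against 3.38 and 3.80 CPM in WT cells. At day 6 it was at 25.04 and 27.9 CPM against 21.5 and 19.2 CPM, and at day 10 at 26.9 and 37.2 CPM against 28.7 and 28.7 CPM. Values of ZEB2 shRNA cells lay above those of WT at days 2 and 6 and overlapped them at day 10, with log2 fold changes of 0.64 (SE 0.24, adjusted p = 0.401), 0.38 (SE 0.17, adjusted p = 0.192) and 0.15 (SE 0.39, adjusted p = 0.818).

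The NR_033258 count was set against the NM_014795 count. This is a ratio of separate rows, which may share reads, and not a part of a whole. It came to 48.9% and 47.7% in ZEB2 shRNA cells at day 2, 45.9% and 48.8% at day 6 and 49.0% and 67.6% at day 10. In WT cells the ratio was 18.7% and 21.6%, 22.3% and 20.4%, and 24.5% and 27.3% at the same days. NKX2-5 shRNA cells, at 20.4% to 27.6%, and ZNF503 shRNA cells, at 24.3% to 29.6%, did not reach the lowest ZEB2 shRNA library either. This ratio was noticed after the values had been seen and carries no test. In the NKX2-5 and ZNF503 shRNA lines at day 6 the 3 rows were all lower than in WT, with NR_033258 at 26.01% and 15.4% of WT.

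**Figure D2:**
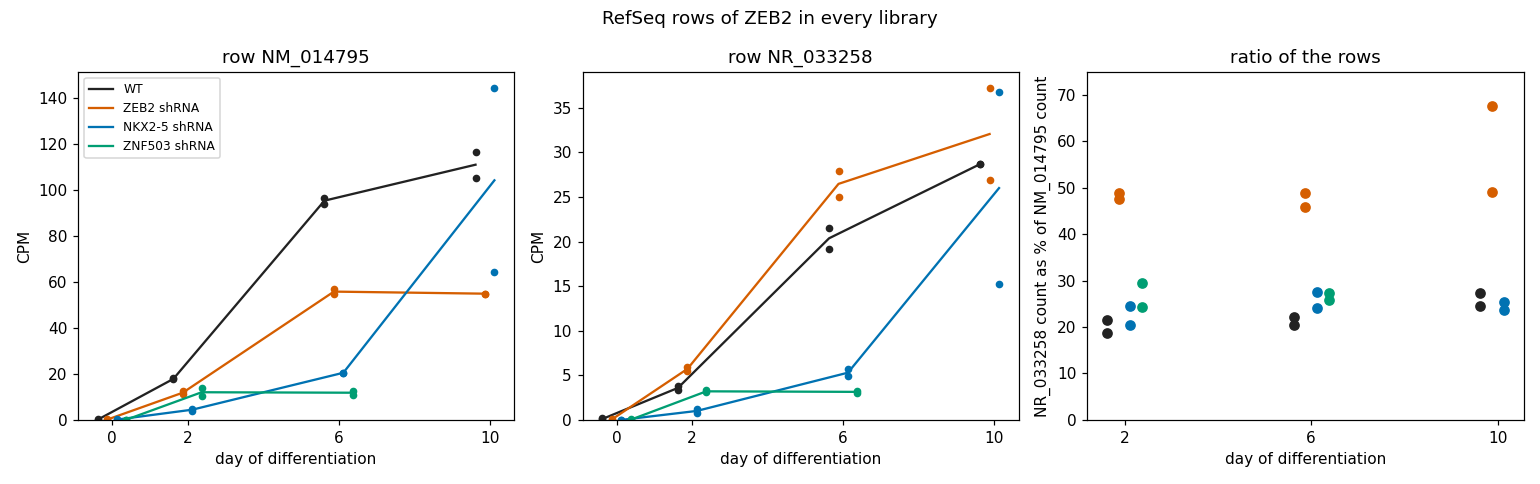
CPM of the coding row NM_014795 (left) and the non-coding row NR_033258 (middle) and the NR_033258 count as a percentage of the NM_014795 count (right) against the day of differentiation. Points are libraries, lines join group means and colours mark the lines. On the right, at days 2, 6 and 10, the 6 ZEB2 shRNA libraries lie at 45.9% or above and those of the other lines at 29.6% or below.

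At day 6 ZEB2 was lower in the other 2 shRNA lines than in the ZEB2 shRNA line. It was at 20.5 and 20.5 CPM in NKX2-5 shRNA cells and at 10.9 and 12.7 CPM in ZNF503 shRNA cells. These were 21.5% ± 0.00243 and 12.4% ± 1.32 (SD, n = 2) of the WT mean, the spread between WT libraries being left out. The order at that day was WT, ZEB2 shRNA, NKX2-5 shRNA and ZNF503 shRNA, with no overlap between neighbours. ZEB2 shRNA cells had more ZEB2 than NKX2-5 shRNA cells (log2 fold change 1.46, SE 0.13, adjusted p = 1.66e-06) and than ZNF503 shRNA cells (2.24, SE 0.13, adjusted p = 1.11e-07), in contrasts added after these levels had been seen. In the same contrasts 44.4% and 49.2% of all genes passed, as did 6 of the 9 list genes tested in each. The 2 lowest lines were not tested against each other.

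At day 2 the order differed. ZEB2 was lowest in NKX2-5 shRNA cells, at 4.84 and 4.05 CPM (log2 fold change against WT -2.03, SE 0.19, adjusted p = 9.41e-06). ZNF503 shRNA cells had 10.4 and 13.7 CPM (-0.64, SE 0.18, adjusted p = 0.0147), which overlapped ZEB2 shRNA cells. This call in ZNF503 shRNA cells ended without their replicate 1 (-0.41, adjusted p = 0.193) or without WT replicate 1 or 2 (adjusted p = 0.0738 and 0.063). At day 10 the NKX2-5 shRNA libraries had 64.3 and 144 CPM, on either side of WT. Their log2 fold change of -0.09 (SE 0.34, adjusted p = 0.848) became 0.38 without replicate 1 and -0.78 (adjusted p = 0.00755) without replicate 2, so that 1 library decides its direction.

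Before differentiation began, ZEB2 shRNA cells differed from WT in 1 of the 10 genes. VIM was at 161 and 122 CPM against 59.3 and 50.1 CPM (log2 fold change 1.35, SE 0.22, adjusted p = 0.00626), with both libraries above both of WT. It was not called without ZEB2 shRNA replicate 1 (1.13, adjusted p = 0.0753) or WT replicate 2 (1.23, adjusted p = 0.0778). At that day 3.93% of the 16888 genes tested passed, and 2.21% passed the study's 2-fold change with 10% FDR, VIM among them. NKX2-5 shRNA cells shared the direction, with VIM at 149 and 272 CPM (1.92, SE 0.23, adjusted p = 0.000409), while ZNF503 shRNA cells had 41.7 and 45.8 CPM (-0.33, SE 0.22, adjusted p = 0.382), and both comparisons use the same WT libraries. Of the mesenchymal list 6 of 16 genes tested rose in ZEB2 shRNA cells at day 0 and none fell, with TAGLN, an actin-binding protein of smooth muscle, at 246 CPM against 26.6 CPM (3.18, SE 0.28) and FN1 at 294 CPM against 179 CPM. TAGLN was also higher in NKX2-5 shRNA cells, at 182 CPM (2.75, SE 0.28, adjusted p = 0.000153). It was lower in ZNF503 shRNA cells, at 9.28 CPM (-1.53, SE 0.28, adjusted p = 0.01). Of the same list 2 rose and 4 fell in NKX2-5 shRNA cells, and 2 rose and 2 fell in ZNF503 shRNA cells. Of the epithelial list 2 of 28 rose in ZEB2 shRNA cells, OCLN by 0.45 and CLDN4 by 0.69, both tight junction genes.

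At day 2 none of the 10 genes passed in ZEB2 shRNA cells, and 1 of them, ZEB2, had an unadjusted p under 0.05. DESeq2 and the edgeR exact test also called 0. The edgeR test called 0.490% of 16518 genes there, and the study's 4-fold threshold 0.133%. ZEB2 passed when no filter on low counts was applied (adjusted p = 0.0342). CDH1 was at 247 and 236 CPM against 228 and 228 CPM, CDH2 at 460 and 421 CPM against 474 and 477 CPM, and SNAI1 at 12.2 and 14.01 CPM against 13.9 and 12.9 CPM. SNAI2 was at 5.76 and 7.31 CPM against 4.76 and 4.599 CPM (log2 fold change 0.44, SE 0.23, adjusted p = 0.614). None of the 28 epithelial genes passed either, 5 of them having an unadjusted p under 0.05, and 1 of 15 mesenchymal genes did, TAGLN, which fell by 1.31 (SE 0.12) on the log2 scale.

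At day 6 ZEB2, ZEB1 and TWIST1, 3 of the 5 regulators tested, were lower in ZEB2 shRNA cells, and CDH1 and EPCAM were higher. ZEB1 was at 34.5 and 28.9 CPM against 74.8 and 72.3 CPM in WT cells, and TWIST1 at 1.93 and 1.18 CPM against 13.1 and 13.4 CPM. Both genes were lower in each ZEB2 shRNA library than in each WT library. The log2 fold changes were -1.20 (SE 0.18, adjusted p = 0.000929) for ZEB1 and -2.99 (SE 0.28, adjusted p = 2.7e-05) for TWIST1. CDH1 was at 71.0 and 59.0 CPM against 26.6 and 39.2 CPM, and EPCAM at 187 and 210 CPM against 101 and 158 CPM. CDH1 rose by 0.98 (SE 0.16, adjusted p = 0.0019) relative to WT and EPCAM by 0.62 (SE 0.17, adjusted p = 0.0362).

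The EPCAM call was lost with the sum of RefSeq rows (adjusted p = 0.0652) and without ZEB2 shRNA replicate 1 or 2 (0.0986 and 0.244) or WT replicate 1 (0.33, adjusted p = 0.223). CDH2 was at 501 and 569 CPM against 504 and 567 CPM, with overlapping libraries (log2 fold change 0.0045, SE 0.11, adjusted p = 0.989). VIM was at 1224 and 1229 CPM against 1632 and 1588 CPM (-0.39, SE 0.12, adjusted p = 0.0555), which passed with DESeq2 (0.0288), the exact test (0.0364) and no filter (0.0106). SNAI1, at 6.34 and 4.20 CPM, and SNAI2, at 28.5 and 26.3 CPM, did not pass (adjusted p = 0.42 and 0.297), and TWIST2 was too low to be tested.

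In all, 5 of 9 genes tested passed at day 6, where 11.0% of 16441 genes did, and none reached the study's 8-fold threshold with 1% FDR, which 0.462% of genes reached. Their median log2 fold change was 0.0045 beside 0.012 over all genes, since 2 rose and 3 fell. Of the epithelial list 10 of 28 rose and none fell (median 0.54), with GRHL2 at 57.8 CPM against 20.4 CPM (1.51, SE 0.15) and CLDN6 at 162 CPM against 88.7 CPM (0.87, SE 0.11). With 1 library left out 3 (ZEB2 shRNA replicate 2), 4 (WT replicate 1), 6 (ZEB2 shRNA replicate 1) or 15 (WT replicate 2) of the 28 rose. In the mesenchymal list 3 of 20 rose, with LUM, a matrix proteoglycan, at 192 CPM against 56.3 CPM and MMP2, a matrix protease, at 38.1 CPM against 15.7 CPM. A further 5 fell, with the smooth muscle actin gene ACTA2 at 109 CPM against 460 CPM and S100A4 at 1.91 CPM against 10.4 CPM. These counts became 1 and 2 without either ZEB2 shRNA replicate, 2 and 6 without WT replicate 1, and 4 and 4 without WT replicate 2. Cell type markers moved at this day too: the cardiomyocyte markers summed to 4930 to 5340 CPM against 8750 to 11000 CPM in WT, all 7 detected in both, and the 5 mesendoderm markers, TBXT among them, to 171 to 188 CPM against 12.9 to 14.3 CPM. The 8 markers of endoderm and liver were at 319 to 449 CPM against 335 to 680 CPM. The part of these markers in the changes of the 10 genes was not tested.

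**Figure D3:**
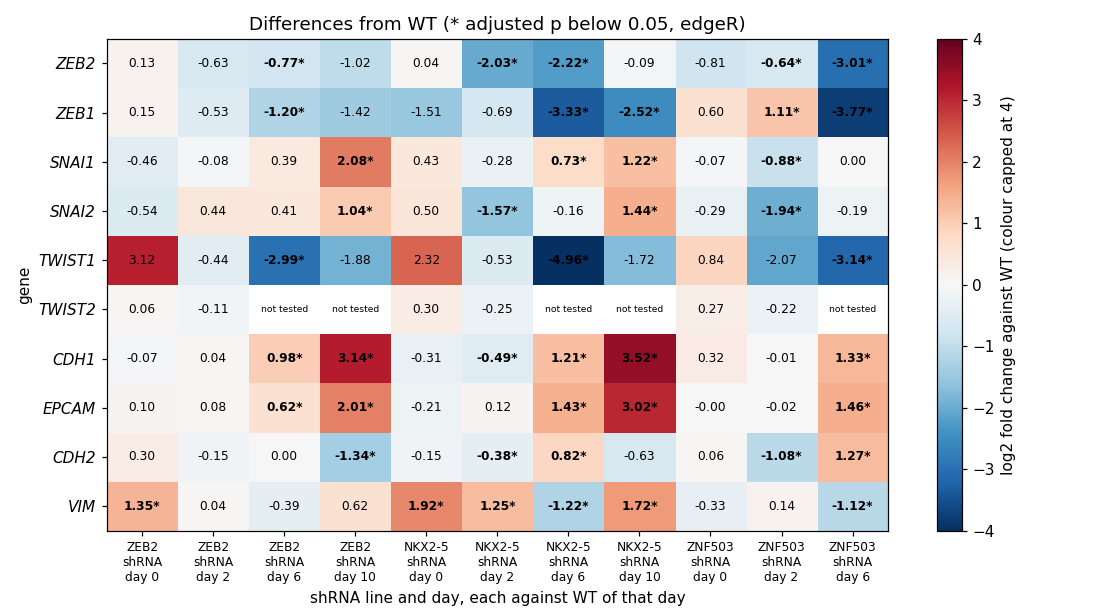
Log2 fold change of each of the 10 genes (rows) against WT of the same day for each shRNA line and day (columns). Bold values with a star have an adjusted p below 0.05 in edgeR and white cells were not tested. CDH1 and EPCAM are higher and ZEB1 lower at day 6 in all 3 shRNA lines, which share their WT libraries.

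At day 10 CDH1 and EPCAM of ZEB2 shRNA cells lay much nearer to their day 0 levels than those of WT cells. CDH1 was at 188 and 161 CPM against 27.8 and 10.97 CPM in WT cells, and EPCAM at 149 and 141 CPM against 42.9 and 28.5 CPM. Every ZEB2 shRNA library lay far above both WT libraries. The log2 fold changes were 3.14 (SE 0.41, adjusted p = 0.00424) for CDH1, which became 3.99 (adjusted p = 0.0217) without WT replicate 3, and 2.01 (SE 0.28, adjusted p = 0.00505) for EPCAM, which was not called without WT replicate 4 (1.76, adjusted p = 0.0506). SNAI1 was at 10.2 and 12.9 CPM against 2.84 and 2.58 CPM (2.08, SE 0.33, adjusted p = 0.00816) and SNAI2 at 24.3 and 28.3 CPM against 13.4 and 12.04 CPM (1.04, SE 0.25, adjusted p = 0.0318).

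CDH2 was the gene that fell, to 433 and 394 CPM against 1125 and 963 CPM (-1.34, SE 0.26, adjusted p = 0.0144). Leaving out any 1 of the 4 libraries ended the calls of SNAI1 (adjusted p from 0.0576 to 0.0976), SNAI2 (0.125 to 0.223) and CDH2 (0.065 to 0.16), though not their direction. ZEB1, at 27.7 and 36.7 CPM against 94.0 and 77.1 CPM, and TWIST1, at 2.44 and 2.82 CPM against 9.95 and 9.36 CPM, lay below both WT libraries without passing (log2 fold changes -1.42 and -1.88, adjusted p = 0.0889 and 0.129). ZEB1 passed with DESeq2 (0.0241), the exact test (0.0324) and the joint fit (0.00128), and TWIST1 in the joint fit (0.0293). The main fit of day 10 estimated spread with the NKX2-5 shRNA libraries included, which had ZEB1 at 6.63 and 23.2 CPM. Their part in these calls was not tested. VIM was at 1016 and 1150 CPM against 722 and 678 CPM (0.62, SE 0.25, adjusted p = 0.122).

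Thus 5 of 9 genes passed at day 10, where 18.2% of 17002 genes did, and 1 (CDH1) passed the study's 8-fold threshold, as did 1.46% of all genes. With 1 of the 4 libraries left out the count was 1 to 2. Of the epithelial list 20 of 28 rose and none fell, with a median of 2.18 beside 0.026 over all genes. RAB25, a vesicle transport GTPase of epithelia, was at 43.9 CPM against 3.67 CPM (3.54, SE 0.26), and GRHL2 at 75.8 CPM against 2.46 CPM (4.98, SE 0.41). With 1 library left out the count was 13 (WT replicate 3), 7 (WT replicate 4), 8 (ZEB2 shRNA replicate 3) or 11 (ZEB2 shRNA replicate 4). The mesenchymal list was higher as well, 13 of 20 rising and none falling (median 1.42), with TNC at 117 CPM against 16.1 CPM and MMP2 at 157 CPM against 37.7 CPM. That count was 9, 4, 5 or 3 with the same libraries left out in turn.

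Markers of other cell types differed at the same time. Those of endoderm and liver summed to 6450 to 7810 CPM in ZEB2 shRNA cells against 1470 to 3600 CPM in WT cells, those of epicardium and fibroblasts to 5150 to 5880 CPM against 854 to 1300 CPM, and those of cardiomyocytes to 3870 to 5650 CPM against 13500 to 16500 CPM, each marker being detected in both libraries. Markers of undifferentiated cells were at 215 to 219 CPM against 101 to 126 CPM. Their part in the levels of CDH1, EPCAM and the lists was not tested. Of the epicardial and fibroblast markers, COL1A1, COL3A1, PDGFRA and LUM also belong to the mesenchymal list. That marker sum and the mesenchymal count above are therefore not separate observations.

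**Figure D4:**
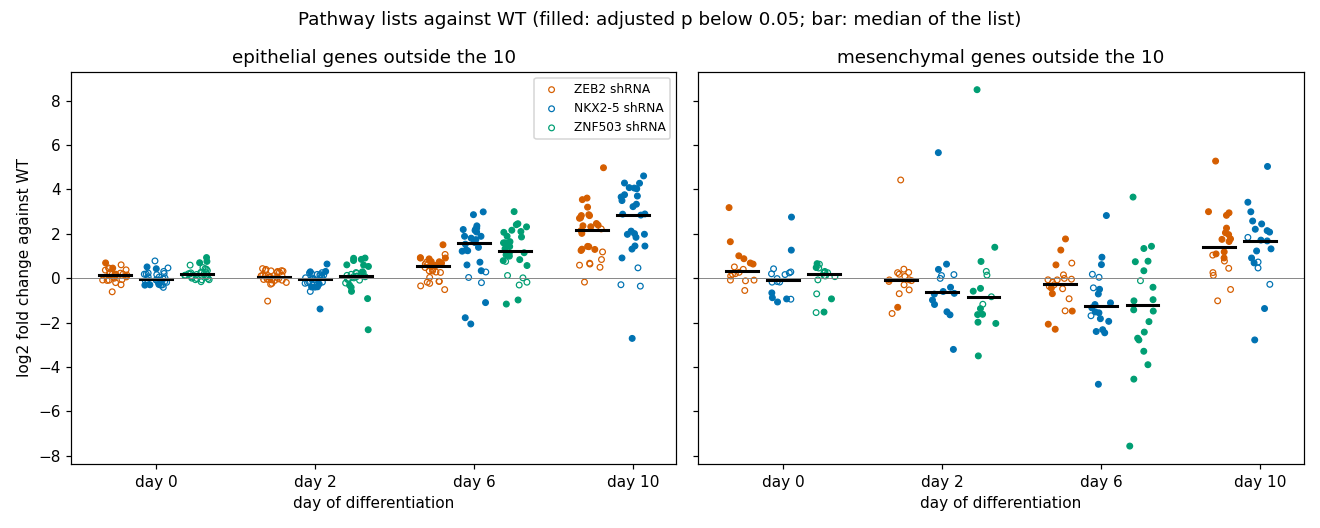
Log2 fold change against WT of each tested gene of the epithelial list (left, 28 genes) and the mesenchymal list (right, up to 20 genes) by day and shRNA line. Points are genes, filled where the adjusted p is below 0.05, and bars mark the median of a list. The epithelial median of ZEB2 shRNA cells goes from 0.16 at day 0 to 2.18 at day 10, where that of NKX2-5 shRNA cells is 2.87.

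Changes over time were also read within ZEB2 shRNA cells. From day 0, 6 genes passed at day 2 (56.9% of all 17747 genes did), 9 at day 6 (63.3%) and 10 at day 10 (78.1%). CDH1 in these cells was at 242 and 228 CPM at day 0 and 247 and 236 CPM at day 2, dropped by 1.89 (SE 0.12, adjusted p = 4.66e-09) on the log2 scale at day 6, and at day 10 was lower than at day 0 by a log2 fold change of -0.49 (SE 0.11, adjusted p = 0.00108), which did not pass without TMM scaling (-0.24, adjusted p = 0.0594) or in the joint fit (-0.41, adjusted p = 0.104). ZEB2 rose by 8.67 (SE 0.27) at day 6, ZEB1 by 6.25 (SE 0.24) and SNAI2 by 7.29 (SE 0.25). SNAI1 rose at day 2 by 2.199 (SE 0.24), and at day 10 it was still raised by 1.99 (SE 0.24, adjusted p = 3.46e-06), where WT cells had -0.40 (SE 0.24, adjusted p = 0.16).

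Whether the change from day 0 differed between ZEB2 shRNA and WT cells was tested in 1 fit of all 30 libraries. It differed for 1 of the 10 genes at day 2, 2 at day 6 and 5 at day 10, where 0.352%, 3.89% and 23.4% of 18478 genes did. At day 10 the change was higher for CDH1 by 3.16 (SE 0.33, adjusted p = 6.66e-07), for SNAI1 by 2.51 (SE 0.35, adjusted p = 1.77e-05) and for EPCAM by 1.88 (SE 0.26, adjusted p = 1.62e-05), and lower for CDH2 by a log2 difference of -1.67 (SE 0.21, adjusted p = 7.4e-06). TWIST1 passed at day 6 (-6.12, SE 1.47, adjusted p = 0.0172) and day 10 (-4.99, SE 1.501, adjusted p = 0.0189), on a WT day 0 level of 2 and 0 reads. For VIM the differences of -1.30 at day 2 and -1.76 at day 6 include its higher level at day 0 in ZEB2 shRNA cells. ZEB2 itself did not pass at any day (adjusted p = 0.915, 0.726 and 0.402), its day 0 counts being 14 or fewer in each library.

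The log2 ratio of CDH2 to CDH1 reads sets both cadherin genes against each other within a library and does not depend on scaling. WT libraries had -0.88 and -0.78 at day 0, 1.06 and 1.06 at day 2, 4.24 and 3.85 at day 6 and 5.34 and 6.45 at day 10. ZEB2 shRNA libraries had -0.46 and -0.45, 0.90 and 0.84, 2.82 and 3.27, and 1.20 and 1.30. At days 6 and 10 each lay below both WT libraries, and at day 10 the ratio was back near its day 2 value. The ratio is given as a description, with no test. Cardiomyocyte markers of ZEB2 shRNA cells were below those of WT at days 6 and 10 as well, and their part in the ratio was not tested.

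**Figure D5:**
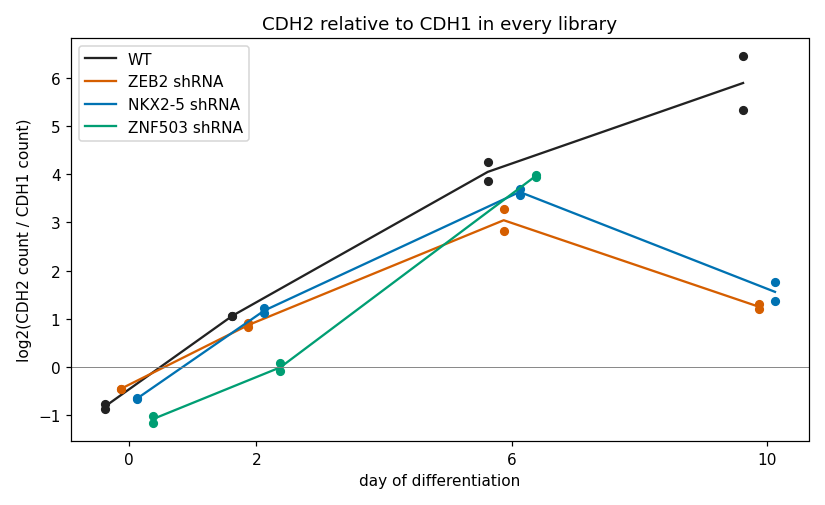
Log2 of the CDH2 count over the CDH1 count, with 0.5 added to each, against the day of differentiation. Points are libraries, lines join group means and colours mark the lines. WT climbs to 5.34 and 6.45 at day 10 while ZEB2 shRNA and NKX2-5 shRNA libraries lie between 1.20 and 1.75.

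The other shRNA lines were compared with the same WT libraries. At day 0, 1 of 10 genes passed in NKX2-5 shRNA cells (VIM; 15.9% of all genes) and 0 of 10 in ZNF503 shRNA cells (7.49% of all genes; 1 gene at an unadjusted p under 0.05 and 1 without a filter). At day 2, 5 of 10 passed in each, against 26.6% and 26.9% of all genes. SNAI2 fell in both, to 1.52 and 1.73 CPM in NKX2-5 shRNA cells (-1.57, SE 0.25, adjusted p = 0.000463) and to 1.28 and 1.26 CPM in ZNF503 shRNA cells (-1.94, SE 0.25, adjusted p = 5.29e-05). CDH2 fell as well, by 0.38 (SE 0.09, adjusted p = 0.0062) and by 1.08 (SE 0.09, adjusted p = 7.12e-07), the former not passing in the joint fit (0.132) or without WT replicate 2 (0.0522). VIM rose in NKX2-5 shRNA cells (1.25, SE 0.11, adjusted p = 6.32e-06) and ZEB1 in ZNF503 shRNA cells (1.11, SE 0.28, adjusted p = 0.00955), the only rises that passed among the 10 genes in these lines at that day. CDH1 fell by 0.49 in NKX2-5 shRNA cells and SNAI1 by 0.88 in ZNF503 shRNA cells, which at 215 and 253 CPM of CDH2 had log2 cadherin ratios of only -0.09 and 0.07 at that day.

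At day 6 the ZEB1 level was 8.35 and 6.43 CPM in NKX2-5 shRNA cells and 4.33 and 6.40 CPM in ZNF503 shRNA cells, log2 fold changes of -3.33 (SE 0.20, adjusted p = 6.38e-08) and -3.77 (SE 0.21, adjusted p = 4.68e-08) against WT. TWIST1 was at 0.515 and 0.361 CPM and at 1.43 and 1.58 CPM (-4.96 and -3.14). CDH1 was at 80.4 and 73.5 CPM and at 81.9 and 84.7 CPM (1.21, SE 0.16, and 1.33, SE 0.17), and CDH2, unlike in ZEB2 shRNA cells, was higher too, at 948 and 957 CPM and 1287 and 1307 CPM (0.82 and 1.27, SE 0.11 each). The difference in CDH2 was itself tested, ZEB2 shRNA cells being lower than NKX2-5 shRNA cells by a log2 fold change of -0.82 (SE 0.11, adjusted p = 7.19e-05) and than ZNF503 shRNA cells by -1.27 (SE 0.11, adjusted p = 2.5e-06). CDH1 was not told apart between ZEB2 shRNA cells and either line (-0.23, SE 0.16, adjusted p = 0.277, and -0.34, SE 0.16, adjusted p = 0.0972).

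Of 9 genes tested at day 6, 8 passed in NKX2-5 shRNA cells, where 49.1% of all genes did, and 7 in ZNF503 shRNA cells, where 55.7% did. SNAI1 in NKX2-5 shRNA cells (0.73, SE 0.26, adjusted p = 0.0365) was lost without their replicate 2 (0.216) or WT replicate 1 (0.192). Of the epithelial list 22 of 28 rose and 3 fell in NKX2-5 shRNA cells and 21 rose and 2 fell in ZNF503 shRNA cells. The mesenchymal list went mostly down, 3 of 20 rising and 13 falling in NKX2-5 shRNA cells (median -1.26). In ZNF503 shRNA cells 6 of 20 rose and 13 fell (median -1.22). Cardiomyocyte markers summed to 36.6 to 46.0 CPM and 151 to 207 CPM in these lines, against 8750 to 11000 CPM in WT, and those of endoderm and liver to 3170 to 3270 CPM and 2410 to 2550 CPM against 335 to 680 CPM.

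At day 10 NKX2-5 shRNA cells had CDH1 at 240 and 208 CPM (3.52, SE 0.41, adjusted p = 0.000937) and EPCAM at 342 and 236 CPM (3.02, SE 0.29, adjusted p = 0.000452). VIM was raised in the same cultures, to 1872 and 2726 CPM against 722 and 678 CPM (1.72, SE 0.25, adjusted p = 0.00203). ZEB1 was at 6.63 and 23.2 CPM (-2.52, SE 0.52, adjusted p = 0.00747), which ranged from -3.68 without NKX2-5 shRNA replicate 2 to -1.88 without replicate 1 and missed the threshold without WT replicate 3 (-2.37, adjusted p = 0.0534). SNAI1 rose by 1.22 (SE 0.33, adjusted p = 0.0216), a call that ended without WT replicate 3 (0.0777) or 4 (0.085), and SNAI2 by 1.44 (SE 0.26, adjusted p = 0.00435). In all 6 of 9 passed, against 43.9% of 17002 genes. Of the epithelial list 24 of 28 rose and 1 fell (median 2.87), and of the mesenchymal list 14 of 20 rose and 2 fell (median 1.70). Marker sums of several cell types lay outside the WT range in these cultures. Those of endoderm and liver stood at 27000 to 38600 CPM against 1470 to 3600 CPM, those of blood at 901 to 1040 CPM against 10.4 to 40.6 CPM, with PTPRC at 0 in both lines, and those of epicardium and fibroblasts at 2850 to 5200 CPM against 854 to 1300 CPM. Cardiomyocyte markers were at 54.7 to 351 CPM against 13500 to 16500 CPM. Their part in the values of CDH1, EPCAM, VIM and SNAI2 was not tested. The epicardial and fibroblast markers again share COL1A1, COL3A1, PDGFRA and LUM with the mesenchymal list.

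Of 18 genes for corepressors, chromatin enzymes and SMADs that bind ZEB proteins, none passed in ZEB2 shRNA cells at any of the 4 days with edgeR (2, 1, 3 and 4 had an unadjusted p under 0.05 at days 0, 2, 6 and 10), where 3.93%, 0.490%, 11.0% and 18.2% of all genes passed. In the NKX2-5 and ZNF503 shRNA lines 9 and 13 of the 18 passed at day 6, beside 49.1% and 55.7% of all genes, so that nothing particular to this list is read from its counts. Among 16 further transcription factors linked to the transition, ID2 fell at day 0 (-0.63, SE 0.13), and 4 rose and none fell at day 6 and at day 10 in ZEB2 shRNA cells, where 11.0% and 18.2% of all genes passed. At day 6 they included KLF8, a repressor of CDH1, at 120 CPM against 26.9 CPM (2.16, SE 0.15, adjusted p = 3.83e-06), and ID1, a dominant-negative helix-loop-helix protein, at 378 CPM against 178 CPM (1.09, SE 0.10). KLF8 was also higher at day 6 in NKX2-5 shRNA cells, at 56.5 CPM (1.06, SE 0.15, adjusted p = 8.9e-05). In ZNF503 shRNA cells it was at 114 CPM (2.07, SE 0.15, adjusted p = 4.95e-07). ID1 rose in ZNF503 shRNA cells (0.33, SE 0.10, adjusted p = 0.017) and did not pass in NKX2-5 shRNA cells (0.15, adjusted p = 0.255). MSX1, at 34.2 CPM against 2.75 CPM (3.65, SE 0.34), and KLF8 led at day 10 in ZEB2 shRNA cells, and KLF8 rose in NKX2-5 shRNA cells as well.

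Of the 6 TGFβ ligand and receptor genes, TGFB2 was lower and TGFB1 higher in ZEB2 shRNA cells than in WT cells at day 6. At day 10 TGFB2 was lower and TGFBR3 higher in ZEB2 shRNA cells. Of all genes 11.0% and 18.2% passed at these days. TGFB2, a ligand that induces the transition in the heart cushions, was at 129 CPM against 466 CPM at day 6 (-1.85, SE 0.13, adjusted p = 3.73e-06) and at 221 CPM against 1102 CPM at day 10 (-2.33, SE 0.22, adjusted p = 0.00217). It was also lower at day 6 in NKX2-5 shRNA cells, at 34.4 CPM (-3.77, SE 0.14, adjusted p = 1.6e-09), and in ZNF503 shRNA cells. NKX2-5 shRNA cells had lower TGFB2 at day 10 too. In ZEB2 shRNA cells TGFB1 was at 16.9 CPM against 9.85 CPM at day 6 (0.78, SE 0.21). TGFBR3 was at 90.9 CPM there against 25.8 CPM at day 10 (1.80, SE 0.30). Of the genes near ZEB2 or antisense to a ZEB gene 2 could be tested (ZEB1-AS1 and TEX41). Neither passed in ZEB2 shRNA cells with edgeR at any day, 1 having an unadjusted p under 0.05 at day 10 and 0 before. Over all genes 3.93%, 0.490%, 11.0% and 18.2% passed at days 0, 2, 6 and 10.

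The genes most like ZEB2 over the 15 groups, by Pearson's r of log2(mean CPM + 1) among 14679 genes, were SYNE1 (0.968), JCAD (0.961), RBM5 (0.955), DEPP1 (0.955), WLS (0.953), ERVK13-1 (0.953), LNPEP (0.953) and SOX5 (0.951). Among the 10 genes SNAI2 (0.911) and ZEB1 (0.904) were nearest to ZEB2, and CDH1 was at -0.63. Those most like CDH1 were ARHGEF5 (0.987), ARHGEF34P (0.987), RAP1GAP2 (0.975), SHANK2 (0.962), ARHGEF35 (0.961), EPHA1 (0.948), RHPN1 (0.938) and SHC1 (0.933). ARHGEF5, ARHGEF34P and ARHGEF35 are near-identical copies whose reads may be shared. The groups share cell lines and days, so that these values only describe likeness.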

How the data were processed

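RNA-seq read counts per RefSeq accession were deposited by the authors for H1 ESC cultures, made from stranded total RNA libraries aligned to hg19 with TopHat2 2.0.14 and Bowtie2 2.2.1.0 and handled with SAMtools 0.1.19.0, per the submitters' processing notes. The counts are raw and not normalized. Of 41627 accessions 40281 (96.8%, holding 97.1% of counts) were given a gene symbol, and each gene was read from its row with the largest total. Of 34 libraries 30 were used, in 15 groups of 2 taken from the labels. The other 4 columns, day 10 replicates 1 and 2 of both WT and ZEB2 shRNA cells, held 42704 values for 41627 accessions and had Spearman correlations of 0.113 to 0.122 with replicate 3, beside 0.985 and 0.993 for replicate 4.

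Counts were tested with the quasi-likelihood test of edgeR 4.0.16 (R 4.3.3, limma 3.58.1), with TMM factors, filterByExpr and Benjamini-Hochberg adjustment over all genes, and calls were made at 5% FDR. Shared fits held all groups of a day or all days of a line, and a joint fit of all 30 libraries gave the differences between changes. The scripts were tested on simulated data. DESeq2 1.42.0, the edgeR exact test, no TMM factors, no filter, summed RefSeq rows, the joint fit, a replicate block, thresholds of the study and leaving out each library were tried as alternatives. SE was taken as the log2 fold change over the root of F. Intervals cover counting error only. Totals ranged from 9189588 to 90798116 counts.

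The rule for the 10 genes uses no measured value, but they and the gene lists were chosen with earlier results of these data known, so that no list is independent evidence. Named list genes were those with the smallest p in each direction. Genes of the lists GTDC1, LINC01412 and TDGF1 were not analysed here, nor was the ZNF503 shRNA line at day 10. Replicate numbers were not found to pair libraries (correlations of deviations from -0.147 to 0.176 within days 0 to 6, and -0.157 between ZEB2 shRNA and WT at day 10).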

Additional observations from a re-analysis of the deposited data

Results flagged for a closer look

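The change from day 0 differed between ZEB2 shRNA and WT cells, by the test of the difference in the joint fit, for 8 pairs of a gene and a day, all given as log2 differences with edgeR's adjusted p. CDH1 at day 10 differed by 3.16 (adjusted p = 6.66e-07), SNAI1 by 2.51 (1.77e-05), EPCAM by 1.88 (1.62e-05) and CDH2 by -1.67 (7.4e-06). VIM differed by -1.30 at day 2 (0.0492) and by -1.76 at day 6 (0.000506), and its level at day 0 was higher in ZEB2 shRNA cells. The day 2 value of VIM was not called without any 1 of 7 libraries, among them ZEB2 shRNA day 0 replicate 1 (-1.09, adjusted p = 0.25). TWIST1 differed by -6.12 at day 6 (0.0172) and by -4.99 at day 10 (0.0189), with 2 and 0 reads in WT cells at day 0. Neither TWIST1 value was called without ZEB2 shRNA day 0 replicate 1 (adjusted p = 0.103 and 0.0785) or WT day 0 replicate 2 (0.137 and 0.111), and the day 6 value was not called without WT day 0 replicate 1 (-9.30, adjusted p = 0.0556) or ZEB2 shRNA day 6 replicate 2 (0.0617).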

How the results depend on the processing

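Of 1605 alternative values for 148 log2 fold changes, 1505 kept direction and side of the threshold, 66 fell short of it, 21 passed it and 13 changed sign. All 59 values of the 30 cadherin and ZEB ratios stayed within the spread of replicates, and of 281 counts of genes passing, 46 moved by over 1.5 times. With the thresholds of the study the counts against WT became 2, 1, 2 and 2 for NKX2-5 shRNA at days 0, 2, 6 and 10, 0 and 3 for ZNF503 shRNA at days 2 and 6, and 0 and 1 for ZEB2 shRNA at days 6 and 10. Over time they became 4 (WT, day 2), 5 and 5 (ZEB2 shRNA, days 6 and 10), 4 (WT, day 2 to 6) and 0 (WT, day 6 to 10). Without a filter the counts were 2 (NKX2-5 shRNA, day 0), 1 (ZNF503 shRNA, day 0) and 1 (ZEB2 shRNA, day 2), with summed rows 2 (NKX2-5 shRNA, day 0) and 0 (difference of changes, day 2), and without TMM factors 0 for that difference. The exact test gave 2 for ZEB2 shRNA at day 0, DESeq2 gave 8 for the difference of changes at day 10, and the joint fit gave 3 and 3 at day 2 for NKX2-5 and ZNF503 shRNA and 9 for ZEB2 shRNA at day 10. The causes were not tested.

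With a replicate block the count for ZEB2 shRNA against WT at day 10 was 9 in place of 5. It was also 9 with the crossed pairing of the same libraries, which was added after seeing the data. Both fits left out the NKX2-5 shRNA libraries that the main fit of day 10 holds. An effect of the block and of their absence cannot be told apart. Same-numbered libraries share only a number, and the block moved no other count of genes passing by over 1.5 times.

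With 1 library left out the counts against WT ranged from 1 to 3, 4 to 5, 7 to 8 and 4 to 8 for NKX2-5 shRNA at days 0, 2, 6 and 10, from 3 to 5 for ZNF503 shRNA at day 2, and from 0 to 1, 4 to 5 and 1 to 2 for ZEB2 shRNA at days 0, 6 and 10. The differences of changes ranged from 0 to 1, 1 to 3 and 4 to 5 at days 2, 6 and 10. Signs turned for CDH2 in ZEB2 shRNA cells at day 6 (-5e-04 without a filter, -2e-04 in the joint fit, and -0.097 to 0.10 with 1 library left out), and at day 2 VIM (-0.0092 to 0.087), SNAI1 (-0.19 to 0.031), TWIST1 (-1.18 to 0.45) and TWIST2 (-0.32 to 0.079) with 1 library left out. ZEB2 in NKX2-5 shRNA cells at day 10 ranged from -0.78 to 0.38, and the difference of its changes spanned -5.94 to 0.23 for day 2 and -6.10 to 0.071 for day 6. Each group holds 2 libraries, which limits all of these values, and fold changes of TWIST1 and ZEB2 from day 0 rest on few reads.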
